A study of Mus musculus with 120 samples.

Results

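The cells described here are 22 activated group 2 innate lymphoid cells (ILC2) of the mouse, out of 120 single cells sequenced. The source names give 11 of them the index IL-5 and 11 the index IL-13. The index is the cytokine whose release was followed by live-cell imaging of single cells in wells coated with a capture antibody. Activated cells were picked at random among those that showed a positive secretion signal at a set time after stimulation, so that the choice used secreted protein and no RNA value. The ILC2 were sorted as lineage-negative, c-Kit+ Sca-1+ cells from fat tissue, the mesentery of 20 wild-type C57BL/6 mice, which was pooled, and per the study's methods they were kept in culture with IL-2 for several months. All activated cells of both indexes had then been incubated with IL-2/IL-33. The labels tie no cell to a mouse or a culture, so each index is 1 sample here and the cells are not replicates of it. No p-value is given, and the differences have no replicate check.

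A minimum of 10000 gene reads per cell removed 3 cells of the series and 0 activated cells. Activated cells held 223789 to 465179 gene reads with the IL-5 index (median 325825) and 207246 to 464285 with the IL-13 index (median 266402). The titles carry a date, and no date holds both indexes: the IL-5 index cells come from 2 dates and the IL-13 index cells from 2 others, with 5 cells on the first and 6 on the second date of each index. Index and date therefore cannot be told apart. Cells recovered before stimulation, 5 per index and all from the first date of each index, carried the same index labels without having been exposed to IL-33, and they serve as a reference for the differences below. These cells held 133373 to 306589 gene reads with the IL-5 index and 164740 to 246131 with the IL-13 index. In the IL-13 index group, replicates 9 and 10 stood apart, with median correlations to the other activated cells of 0.230 and 0.304, and calls that were lost without them are given below.

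ILC2 are tissue-resident lymphocytes that have no antigen receptor and respond to alarmins such as IL-33 from damaged epithelium and stroma. They release the type 2 cytokines IL-5, which drives the growth and survival of eosinophils, and IL-13, which acts on epithelium, smooth muscle and macrophages in helminth infection and allergy. The transcription factor GATA3 is needed for the lineage and binds the type 2 cytokine locus, in which Il5, Rad50, Il13 and Il4 lie side by side.

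Both index genes lie on mouse chromosome 11. In GRCm38 the Il5 gene (ENSMUSG00000036117) spans 53720794 to 53725106 on the plus strand, and the Il13 gene (ENSMUSG00000020383) spans 53631324 to 53634702 on the minus strand. The 250 bases upstream of each start are printed because these 2 genes name the groups that were compared. The sequences are from RefSeq (GRCm38.p6), 5′ to 3′ on the gene's own strand, and capitals mark the 4-letter core GATA or its complement TATC, searched on both strands.
Il5, chr11:53720544-53720793, plus strand: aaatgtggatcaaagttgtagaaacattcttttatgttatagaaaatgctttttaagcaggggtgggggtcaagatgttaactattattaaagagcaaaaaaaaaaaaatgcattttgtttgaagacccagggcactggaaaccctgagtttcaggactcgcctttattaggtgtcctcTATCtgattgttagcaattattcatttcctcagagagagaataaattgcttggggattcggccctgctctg
Il13, chr11:53634703-53634952, minus strand: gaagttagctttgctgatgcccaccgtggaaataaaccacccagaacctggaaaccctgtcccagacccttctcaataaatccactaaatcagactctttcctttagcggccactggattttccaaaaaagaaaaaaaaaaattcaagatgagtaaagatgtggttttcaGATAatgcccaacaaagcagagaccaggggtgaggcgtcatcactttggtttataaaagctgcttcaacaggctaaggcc
The window of Il5 held 1 match, 71 bases upstream of the start, and that of Il13 held 1 match, 80 bases upstream. Of 32851 windows of the same length, 17614 (53.6%) held the core, so the match is a description of these letters. Binding was not measured here.

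Il5 was higher with the IL-5 index, and every activated cell of both indexes had reads of it. The 11 IL-5 index cells ranged from 63.9 to 11295 CPM (reads per 1000000 gene reads), with a median of 1332 CPM. The 11 IL-13 index cells ranged from 4.88 to 2051 CPM, with a median of 748 CPM. The 2 ranges overlapped over most of the IL-13 range, and an IL-5 index cell was the higher one in 76.0% of the pairs of 1 cell of each index. With the reads of each group summed, the level of Il5 was 2929 CPM (95% Poisson interval 2874 to 2984, 10931 reads) against 772 CPM (741 to 803, 2464 reads), a log2 ratio of IL-5 to IL-13 index of 1.92 (95% binomial interval 1.86 to 1.99) and 3.80-fold. All such intervals here cover counting error only, not the spread between cells, which was far wider. The difference had the same sign in all 4 pairs of a date of one index with a date of the other, from 1.71 to 2.07. IL-5 index replicate 7 held 43.2% of its group's Il5 reads, and leaving that cell out gave a log2 ratio of 1.28. The difference of the medians of log2(CPM + 1) over cells was 0.83.

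Before stimulation Il5 was near 0 with both indexes. It had 0 reads in the 5 IL-5 index cells and 23 reads in the 5 IL-13 index cells, all of them in 1 cell at 93.5 CPM. The pre-stimulation difference thus had the opposite sign to that of activated cells, on few reads. Silent cells had shown no signal of their own index cytokine, and release of the other cytokine is not given for them. Their summed level of Il5 was 482 CPM with the IL-5 index (10 cells) and 204 CPM with the IL-13 index (11 cells), a log2 ratio of 1.24. One silent IL-5 index cell at 6576 CPM held 78.1% of those reads. Cells taken 30 min after the onset of secretion gave 4602 against 1310 CPM, a log2 ratio of 1.81. Activated, silent and 30 min cells of an index come from the same dates, so these states do not separate index from date either.

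The difference in Il13 was smaller in the sums and had no direction shared by the dates. Il13 ranged from 6.09 to 4186 CPM in the IL-5 index cells (median 528) and from 33.4 to 4064 CPM in the IL-13 index cells (median 950). The ranges overlapped almost entirely. The summed level was 991 CPM (3699 reads) with the IL-5 index and 1231 CPM (3932 reads) with the IL-13 index, a log2 ratio of -0.31 (-0.38 to -0.25), and -0.21 without the 2 IL-13 index cells that stood apart. Between pairs of dates this ratio went from -0.77 to 0.56, and without IL-13 index replicate 6 it was 0.07, so its direction turned with the dates and on leaving out 1 cell. The second IL-13 date stood above the first, at 1542 against 754 CPM, whereas the IL-5 dates were at 1112 and 902 CPM. The difference of the medians of log2(CPM + 1) over cells was -0.84, of about the size of that of Il5. Il13 had 0 reads before stimulation with the IL-5 index and 1 read with the IL-13 index. In silent cells it was 626 CPM with the IL-5 index against 4.16 CPM with the IL-13 index, where 11 reads in 1 cell were the whole count. At 30 min it was 1897 against 2144 CPM.

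**Figure D1:**
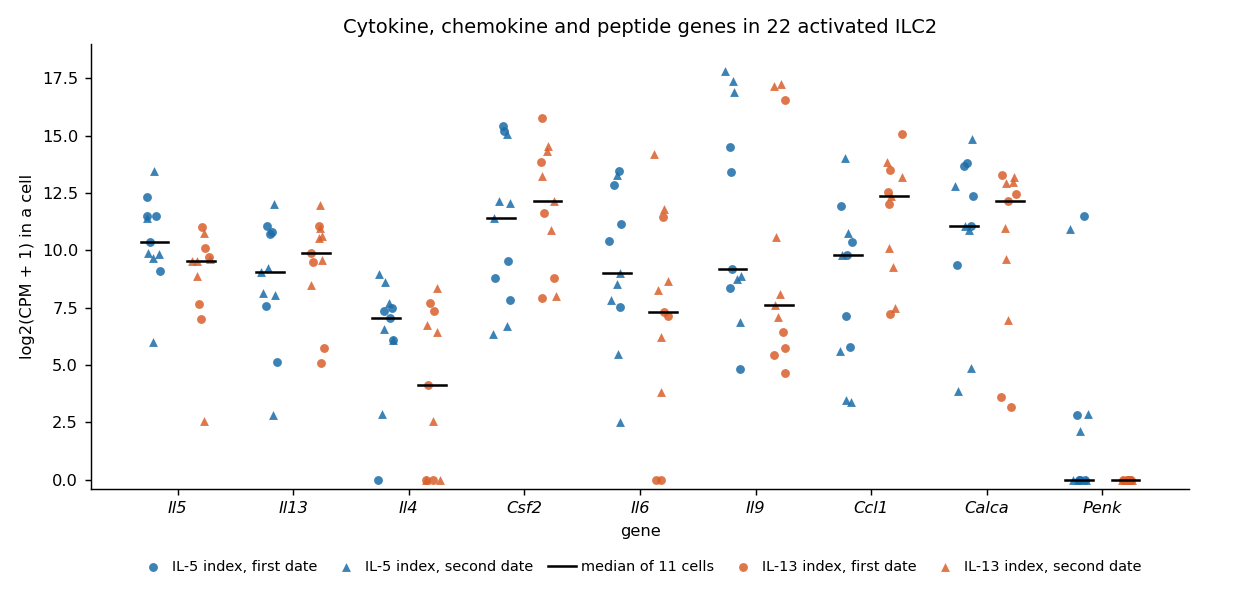
Levels of 9 genes in each activated cell, as log2(CPM + 1) on the vertical axis, for the IL-5 index (blue) and the IL-13 index (orange). Circles are cells of the first and triangles cells of the second title date of an index, and each bar is the median of 11 cells. The medians of Il5 (1332 against 748 CPM) and Ccl1 (884 against 5346 CPM) lie apart in opposite directions, and for all 9 genes the cells of the 2 indexes overlap.

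The balance between the 2 cytokines within a cell was also compared, as the share of Il5 among the reads of Il5 and Il13. Reads come from the 3′ ends of transcripts and are not scaled to length, so the share is set between cells and is not a ratio of molecules. It ran from 18.3% to 95.5% in IL-5 index cells (median 75.7%) and from 1.33% to 96.2% in IL-13 index cells (median 48.9%). On the first and second date the medians were 75.21% and 83.13% with the IL-5 index, and 60.65% and 30.45% with the IL-13 index. Il5 reads outnumbered Il13 reads in 9 of 11 IL-5 index cells and in 5 of 11 IL-13 index cells. At 30 min after onset the medians were 61.9% and 27.6%. Silent cells, which lacked the signal of a different cytokine in each index, went the other way. Their medians were 28.9% with the IL-5 index and 100% with the IL-13 index. These are over the 9 and 8 cells that held at least 10 reads of the 2 genes. Cells of either index thus lay on both sides of an even split.

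**Figure D2:**
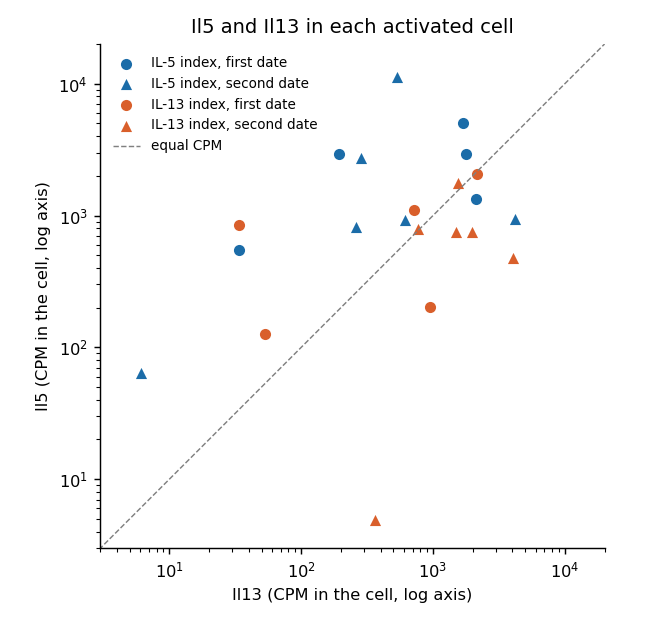
Il5 (vertical) against Il13 (horizontal) in each activated cell, both in CPM on log axes, with the colour giving the index and the symbol the title date. The dashed line marks equal CPM. Of 11 IL-5 index cells 9 lie above the line, and of 11 IL-13 index cells 5 do.

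Among the other cytokines a few very high cells set the sums. A gene was taken as measured at 50 CPM or more in the higher group, which 3004 genes reached. A measured gene of a list was called where the summed levels differed at least 2-fold with the same direction in all 4 pairs of dates. Of all measured genes 10.0% were called higher with the IL-5 index and 9.12% with the IL-13 index, 19.1% in all, and the median log2 ratio was -0.01. These shares are the background for every list below. Of all measured genes 49.5% had a positive log2 ratio. Of the 27 cytokines listed, 14 were measured and 4 were called, 3 higher with the IL-5 index and 1 higher with the IL-13 index. Their median log2 ratio was 0.62.

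Il9, a mast cell and ILC2 growth factor, was the most abundant of them, at 60451 CPM with the IL-5 index and 44252 CPM with the IL-13 index. Single cells ran from 27.4 to 229067 CPM (median 580) and from 24.4 to 154582 CPM (median 195), and 1 cell in each group held 47.2% and 50.8% of the reads. Its log2 ratio of 0.45 went from -3.30 to 2.58 between pairs of dates. Csf2, which encodes GM-CSF, was at 12102 against 13159 CPM, with -1.18 to 0.75 between dates, and single cells from 80.2 to 44584 CPM and from 244 to 56670 CPM. Before stimulation Csf2 had 34 reads and 1 read. Il6 was at 3080 against 2527 CPM, with -1.16 to 2.92 between dates. None of these 3 genes had a direction that the dates shared.

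Il4, the remaining cytokine gene of that locus, had reads in 10 IL-5 index and 7 IL-13 index cells, at 169 against 96.1 CPM, a log2 ratio of 0.81 (0.02 to 1.47 between dates). Before stimulation Il4 had 161 reads in 4 IL-5 index cells and 0 with the IL-13 index, a log2 ratio of at least 5.42, and it stood at 1.48 in silent cells and -1.30 at 30 min. Calca, which encodes the neuropeptide CGRP, had a summed level of 7048 against 4085 CPM, higher with the IL-5 index in all pairs of dates (0.63 to 0.99), against a log2 ratio of -0.73 before stimulation. Its median over cells went the other way, with 2131 CPM in IL-5 index cells and 4586 CPM in IL-13 index cells. Mif, a broadly expressed cytokine, was nearly even at 2226 and 1952 CPM, a log2 ratio of 0.19 beside -0.09 before stimulation.

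Beside Il5, the called cytokines were Penk, Lta and Tnf, each read in few cells. Penk, which encodes the precursor of enkephalin peptides, had 1300 reads with the IL-5 index and 0 with the IL-13 index, and replicates 2 and 11 held 644 and 651 of them. Against a floor of 3 reads over the group, Penk was at least 371-fold higher with the IL-5 index. Tnfsf8, the CD30 ligand, had reads in 3 IL-5 index cells (58.4 CPM) and in 0 IL-13 index cells, and was not called because some pairs of dates held no reads of it. Tnf was the reverse of these, at 13.1 CPM in 2 IL-5 index cells against 84.2 CPM in 3 IL-13 index cells, a log2 ratio of -2.68 beside -2.99 or beyond before stimulation, with 0 and 19 reads. Lta, which encodes lymphotoxin alpha, was at 56.8 against 22.9 CPM in 2 and 4 cells, and without IL-5 index replicate 6 its log2 ratio of 1.31 became -0.87. Areg, the epidermal growth factor family member amphiregulin, had reads in 2 IL-13 index cells alone, at 52.3 CPM, and was not called for the same reason. Bmp7, a growth factor of bone and fat, had a log2 ratio of 2.03 that went from -0.69 to 4.50 between dates, beside 1.87 before stimulation.

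Ccl1 was the chemokine with reads in all 22 activated cells, and it was higher with the IL-13 index. This ligand of the receptor CCR8 attracts type 2 lymphocytes. Single cells ran from 9.35 to 16805 CPM (median 884) with the IL-5 index and from 147 to 34763 CPM (median 5346) with the IL-13 index. The summed level was 2201 against 7092 CPM, a log2 ratio of -1.69 (-1.73 to -1.65) and 3.22-fold. The ranges overlapped, and the IL-5 index cell was the higher one in 23.1% of pairs. The direction was shared by all pairs of dates, from -3.42 to -0.42. Ccl1 had 0 and 1 reads before stimulation, and its log2 ratio was 0.55 in silent cells and 1.29 at 30 min, opposite in sign to that of activated cells. IL-5 index replicate 11 held 67.2% of its group's reads, and the log2 ratio was -3.16 without it and -1.06 without IL-13 index replicate 2.

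Of 15 chemokines 4 were measured, with 1 called in each direction. The gene called with the IL-5 index was Cxcl3, a chemokine that draws neutrophils, with 84.7 CPM in 4 cells against 15.7 CPM in 2 cells. Cxcl1 and Cxcl2, of the same family, lay almost wholly in 1 cell of a group. Of 448 Cxcl1 reads 447 fell in 1 IL-13 index cell. IL-5 index replicate 5 held 1893 of the 1957 Cxcl2 reads of its group, and IL-13 index replicate 4 held all 468. Cxcl2 went from -4.39 to 9.61 on the log2 scale between pairs of dates.

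Of the receptors for cytokines that activate ILC2, Il2ra differed with reads in all 22 cells. Il2ra, the high-affinity chain of the receptor for IL-2, ran from 773 to 5034 CPM (median 2633) in IL-5 index cells and from 145 to 3385 CPM (median 556) in IL-13 index cells. All 11 IL-5 index cells lay above the IL-13 index median, and the IL-5 index cell was the higher one in 81.8% of pairs, but the ranges overlapped. The summed level was 2566 against 1226 CPM, a log2 ratio of 1.06 (1.01 to 1.12), with 0.85 to 1.48 between dates and 0.89 to 1.35 on leaving out any 1 cell, so that it lay close to the 2-fold limit. It was 0.88 without the 2 cells that stood apart. Before stimulation the log2 ratio was -0.93, in silent cells 1.24 and at 30 min 1.02. Of 10 measured receptor genes, 4 were called, 2 in each direction, with a median log2 ratio of 0.67. The others called were Ifngr1, the interferon gamma receptor (2.24 on the log2 scale), higher with the IL-5 index, and with the IL-13 index Il18rap, a chain of the IL-18 receptor (-2.03), and Il7r, the IL-7 receptor (-1.41), each read in 7 or fewer cells of a group. Before stimulation these 3 stood at -1.40 for Ifngr1, -2.83 or beyond for Il18rap (0 IL-5 index reads) and -1.94 for Il7r. Without IL-13 index replicate 10, 1 of the 2 cells that stood apart, Il7r was at -0.32 and was no longer called.

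Of 10 measured costimulatory and checkpoint genes 0 were called, beside the 19.1% of all genes, and 5 had a positive log2 ratio, with a median of 0.21. Pdcd1, which encodes PD-1 (-2.02, 2 and 2 cells), and Cd200r1 (-1.75, 3 and 5 cells) were higher with the IL-13 index in the sums, with no direction shared by the dates. Tnfrsf18, which encodes GITR, came close to the limit. It ran from 850 to 3006 CPM (median 1602) with the IL-5 index and from 6.46 to 2255 CPM (median 957) with the IL-13 index, and the log2 ratio of 0.89 was 0.81 to 0.95 between dates, against -0.61 before stimulation. Tnfrsf9, which encodes 4-1BB, was at 491 against 260 CPM (log2 ratio 0.91, 0.01 to 1.42 between dates). Before stimulation Tnfrsf9 had 35 reads in 1 IL-5 index cell and 0 with the IL-13 index.

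Of 10 measured lineage transcription factors 4 were called. Id2, an inhibitor of E proteins on which innate lymphoid cells depend, ran from 131 to 2704 CPM (median 572) with the IL-5 index and from 0 to 1377 CPM (median 195) with the IL-13 index. Its summed log2 ratio was 1.65, from 0.61 to 2.19 between dates, and the IL-5 index cell was the higher one in 81.8% of pairs. The same ratio was negative in the other states, at -0.59 before stimulation, -0.53 in silent cells and -0.33 at 30 min. Irf4, a factor induced by activating signals in lymphocytes, was read in 10 IL-5 index and 6 IL-13 index cells, at 315 against 114 CPM (1.47, from 0.51 to 2.31 between dates). It had 0 reads before stimulation. In silent and 30 min cells it had 208 and 55 reads with the IL-5 index and 0 with the IL-13 index, log2 ratios of at least 5.90 and 3.79 against the floor. Nfil3, an early factor of the lineage, was also higher with the IL-5 index (log2 ratio 2.03, 6 and 5 cells). Ahr, the aryl hydrocarbon receptor, was higher with the IL-13 index, at 147 against 35.4 CPM. Nfil3 and Ahr had 0 reads before stimulation. Gata3 and Rora, named here outside the rule as factors that define the lineage, differed by 0.60 and 0.12 on the log2 scale, beside 0.87 and 1.06 before stimulation, and were not called.

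Signalling and early response genes stayed at or under the background. Of 14 measured NF-kB subunits and feedback genes 1 was called, the kinase gene Map3k8 (log2 ratio 2.05, 82.8 against 20.0 CPM, beside -0.03 before stimulation), and of 8 measured AP-1, Egr, Nr4a and Ier genes 1 was called, Egr2 (-1.99). IL-13 index replicate 10 held 70.2% of the Egr2 reads of its group, and without it the ratio of Egr2 was -0.35. Batf, an AP-1 factor of activated lymphocytes, was at 1201 against 983 CPM (0.29). Before stimulation Batf had 0 reads with the IL-5 index and 118 with the IL-13 index. Of 17 measured IL-2 and STAT signalling genes 3 were called, among them the survival gene Bcl2l1 with the IL-5 index (1.67, 8 and 3 cells) and Bcl2a1b with the IL-13 index. IL-13 index replicate 9 held 81.9% of the Bcl2a1b reads of its group, and the ratio was -0.58 without it, under 2-fold. Bcl2a1b also has near-identical copies in the genome, so its count is uncertain. Bcl2l1 and Bcl2a1b had 0 reads before stimulation.

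Of 9 measured glycolysis genes 0 were called, 8 had a positive log2 ratio, and their median was 0.29. Of 49 measured endoplasmic reticulum (ER) and secretory pathway genes 33 had a positive log2 ratio, with a median of 0.40, and 5 were called. These counts stand beside 49.5% positive ratios over all measured genes, and the ER list had a median log2 ratio of 0.27 before stimulation, over 48 genes. Copb1, a subunit of the COPI coat, was called with the IL-5 index (2.39), as was Copa of the same coat (1.02, named after its values were seen, and -1.45 before stimulation). P4hb, a protein disulfide isomerase, was called with the IL-13 index, at 170 against 447 CPM (-1.39), as were the ER retrieval receptor gene Kdelr1 (-1.63) and Ddit3, a stress-induced factor read in 6 IL-13 index cells and 0 IL-5 index cells. P4hb was at -0.90 without IL-13 index replicate 9 and at -0.33 without both cells that stood apart. Before stimulation Copb1 stood at -1.83, P4hb at -0.90, Kdelr1 at 1.21 and Ddit3 at 1.07. Of 10 measured cholesterol and fatty acid synthesis genes 3 were called, among them the sterol synthesis genes Sqle (1.24) with the IL-5 index and Hsd17b7 (-4.04) with the IL-13 index. Sqle was at 0.90 without IL-5 index replicate 1, and had 0 reads before stimulation. Hsd17b7 had 0 and 6 reads there.

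In the interferon list 2 of 8 measured genes were called, in opposite directions. H2-D1, a class I major histocompatibility gene, ran from 420 to 3371 CPM (median 1053) with the IL-5 index and from 159 to 1129 CPM (median 630) with the IL-13 index. The log2 ratio was 1.25 (0.54 to 1.66 between dates) against 0.33 before stimulation, and 0.94 without IL-5 index replicate 7. Reads of H2-D1 may be shared with its near-identical neighbours, and H2-K1 differed by 0.70, beside 0.31 before stimulation. Bst2, an antiviral membrane protein gene, was the gene higher with the IL-13 index (-1.68), against 2.45 before stimulation. Of 19 measured oxidative stress and detoxification genes 2 were called. Sod2, the mitochondrial superoxide dismutase, was at 382 against 170 CPM (1.17, from 0.98 to 1.31 between dates, -0.19 before stimulation and 0.96 without IL-5 index replicate 6), and Gclc, a subunit of the enzyme that begins glutathione synthesis, was higher with the IL-13 index (-2.21).

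Of 9 measured proliferation genes 3 were called: Hmgb2 with the IL-5 index (3.15, 6 and 1 cells), and Ccnd3 and Mcm6 with the IL-13 index, Ccnd3 with 0 reads in the IL-5 index cells. Before stimulation Hmgb2 stood at -2.20, Ccnd3 at -2.76 and Mcm6 at -6.30 or beyond (0 IL-5 index reads). Mcm6, at -1.02 in activated cells, lay at the 2-fold limit. Leaving out any of several cells took Mcm6 under it, the furthest to -0.52 without IL-13 index replicate 11. Of 9 measured lipid mediator and secretory genes 1 was called, Hpgds, the prostaglandin D2 synthase of haematopoietic cells (-1.24, beside -1.50 before stimulation and -0.93 without IL-13 index replicate 10), and of 18 heat shock and chaperone genes 1 was called, Bag3 (-5.17), read in 1 and 3 cells, with 0 reads before stimulation. IL-13 index replicate 9 held 82.5% of the Bag3 reads of its group, and the ratio was -2.75 without it. Srgn, the core protein of secretory granule proteoglycans, was at 1739 against 960 CPM (0.86, from 0.45 to 1.27 between dates and -0.36 before stimulation) and was not called.

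Housekeeping groups held few called genes. Of 80 measured cytosolic ribosomal protein genes 0 were called and 18 had a positive log2 ratio, with a median of -0.14. Rpl41 was at 4407 against 6562 CPM (-0.57), beside -0.45 before stimulation. Counts of ribosomal protein genes may be split with their many processed copies. Of 78 measured nuclear oxidative phosphorylation genes (median -0.16) 3 were called: Ndufa6, a subunit of complex I (1.02), and Sdhaf2, an assembly factor of succinate dehydrogenase (4.39), with the IL-5 index, and Atp5s, with 0 reads in the IL-5 index cells, with the IL-13 index. IL-13 index replicate 9, which stood apart, held 390 of the 408 Atp5s reads. Before stimulation Ndufa6 stood at -1.52, Sdhaf2 at 0.12 and Atp5s at -1.70. Of 34 proteasome genes (median 0.01) Psmd10 (2.20) and Psmd6 (1.01) were called with the IL-5 index and Psmd12 (-1.01) with the IL-13 index, against -2.25, 0.44 and 0.38 before stimulation. Ndufa6, Psmd6 and Psmd12 lay at the 2-fold limit, and leaving out any of several cells took them under it. Of 8 mitochondrially encoded genes (median 0.09) 0 were called.

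Of 4 measured nuclear non-coding RNAs 2 were called, both higher with the IL-13 index: Gm26917 (-2.02) and Malat1. Gm26917 was at -2.75 or beyond before stimulation (0 and 16 reads) and at -1.19 in activated cells without the 2 that stood apart. Malat1, an abundant RNA of nuclear speckles, was at 2535 against 5962 CPM, a log2 ratio of -1.23 (-2.14 to -0.25 between dates) against 0.81 before stimulation and -1.10 in silent cells. IL-13 index replicate 10, at 31392 CPM, held 38.0% of the reads of its group. The Malat1 ratio was -0.65 without it and -0.34 without both cells that stood apart, under 2-fold in either case, and the medians over cells were 3022 and 3549 CPM. Beside this, the share of gene reads from mitochondrial genes was 1.05% to 2.76% (median 1.28%) in IL-5 index cells and 0.815% to 3.81% (median 1.22%) in IL-13 index cells. The share of reads assigned to no gene was 2.45% to 8.65% (median 4.59%) and 2.06% to 16.7% (median 4.90%). At 100000 reads drawn from each cell, 2323 to 3485 genes were detected per IL-5 index cell (median 3029) and 1512 to 3241 per IL-13 index cell (median 2911). IL-13 index replicates 9 and 10, which stood apart, had the fewest genes of all activated cells (1512 and 2000). They also had the highest shares assigned to no gene (16.7% and 12.75%). The part of these measures in the results was not tested.

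Of 14 ILC2 markers 13 were measured, and their summed level ran from 5390 to 14549 CPM (median 7883) with the IL-5 index and from 2793 to 14334 CPM (median 4678) with the IL-13 index. Of the 13, 2 were called in each direction, all of them genes of the receptor and transcription factor lists except Ptprc, which encodes CD45 (-1.43, beside 0.78 before stimulation and -0.87 without the 2 cells that stood apart). Among markers of other cell types, all 8 of natural killer cells and ILC1, all 5 of erythroid cells, 10 of 11 stromal, 12 of 14 myeloid, 9 of 10 mast cell or basophil and 7 of 8 B cell markers had 0 reads in the activated cells. The mast cell and basophil marker with reads was Fcer1a, a chain of the high-affinity IgE receptor, with 870 reads in 2 IL-5 index cells and 155 in 1 IL-13 index cell (233 against 48.5 CPM), the highest cell at 2093 CPM. Of 11 T cell markers 8 were at 0. The others included Trbc2, whose transcripts ILC2 can also hold, at 296 against 443 CPM, and the T cell sum per cell was 0 to 892 CPM (median 428) with the IL-5 index and 0 to 3561 CPM (median 212) with the IL-13 index. Of 7 ILC3 markers 6 were matched in the files, of which 5 were at 0. The sixth, Il22, the cytokine of that lineage, was at 0 reads in the IL-5 index cells and had 1098 reads with the IL-13 index, 1095 of them in replicate 11.

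The largest differences between the indexes were taken by a rule of size: at least 4-fold, 50 CPM or more and a read in at least 70% of the cells of the higher group, and the same direction in the mean of the cells' CPM, in all 4 pairs of dates and on leaving out any 1 cell. Of the 3004 measured genes, 24 met it with higher levels in the IL-5 index (0.799%) and 10 with higher levels in the IL-13 index (0.333%). Without IL-13 index replicates 9 and 10, which stood apart, the counts were 24 and 15, with 18 and 9 of the genes shared. Counting a cell at 10 CPM or more gave 13 and 7. With the terms on dates and left-out cells dropped the counts were 25 and 14, and leaving out 1 cell then gave 25 to 43 and 13 to 27. In a group that lost cells, fewer cells with a read make up the 70%. The rule was thus looser in such runs, and counts can rise for that reason. Just inside the fold lay Vasp (-2.01) and Polr3d (2.02), and just outside it Hnrnpr and Tbrg1 (both -1.97). No gene separated the indexes fully: 0 measured genes (0.00%) had no overlap between the 11 and 11 cells. Of the 24, Ndufaf8, named here after its values were seen, came closest, with a read in every IL-5 index cell, a log2 ratio of 2.20 and the IL-5 index cell higher in 91.7% of pairs.

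The 10 genes of largest difference toward the IL-5 index had summed levels of 56.3 to 244 CPM. Ppt1, a lysosomal thioesterase, ran from 0 to 179 CPM (median 49.9) in IL-5 index cells, with reads in 9 of 11, and had 0 reads in the 11 IL-13 index cells, which made it at least 87.6-fold higher against the floor of 3 reads. Surf1, an assembly factor of cytochrome oxidase, had reads in 8 IL-5 index cells (61.6 CPM) and 0 reads in the IL-13 index cells, at least 65.6-fold. IL-5 index replicates 4 and 8 held 1 read of Ppt1 each, and replicate 9 held 1 read of Surf1. With a cell counted at 10 CPM or more, Ppt1 and Surf1 fell under the share of cells in the rule and dropped out. Both genes were read with the IL-13 index in other states. Before stimulation Ppt1 was at 15.7 CPM with the IL-5 index and 129 CPM with the IL-13 index, and Surf1 was at 116 and 296 CPM, both opposite in direction to the activated cells.

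Sdf2, an ER-resident chaperone cofactor, ran from 0 to 1254 CPM (median 150) in IL-5 index cells, and it was read in 2 IL-13 index cells, the higher at 180 CPM. Its log2 ratio of 3.80 stood beside -5.65 before stimulation (-7.95 to -4.07, with 3 reads in the IL-5 index cells). Itgal, the alpha chain of the integrin LFA-1 with which lymphocytes adhere, was read in 10 IL-5 index and 2 IL-13 index cells, at 161 against 16.6 CPM (3.27, from 2.85 to 4.16 between dates). Before stimulation Itgal had 125 reads with the IL-5 index and 0 with the IL-13 index, a log2 ratio of at least 5.05 in the same direction. The others of the 10 largest were Ergic1, a protein of the ER to Golgi compartment (3.73), Smim27 (3.73), the cap methyltransferase gene Tgs1 (3.36), the mitochondrial import factor gene Tomm34 (2.90), ENSMUSG00000089672, which has no symbol here (2.90), and Nucb2, a calcium-binding protein (2.88). Before stimulation Ergic1, Smim27, Tomm34 and Nucb2 differed in the same direction, by at least 4.04 for Ergic1, which had 0 IL-13 index reads, and by 2.82, 4.18 and 1.77 for the others, while Tgs1 and ENSMUSG00000089672 stood at -0.81 and -0.21.

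Toward the IL-13 index the largest difference was in Zbtb7a, a transcriptional repressor of the zinc finger and BTB family. It ran from 0 to 348 CPM (median 60.9) with the IL-13 index, with reads in 9 of 11 cells, and was read in 2 IL-5 index cells, at most at 22.3 CPM. The summed level was 3.48 against 102 CPM, a log2 ratio of -4.88 (-5.80 to -4.08), nearly the same in every pair of dates (-5.02 to -4.78). In silent cells Zbtb7a had 1 read with the IL-5 index and 235 with the IL-13 index (95% interval of the log2 ratio -13.4 to -5.60), whereas before stimulation the log2 ratio was 2.02 and at 30 min 2.03. Gtf2h2 (-3.56) and Gtf2e2 (-2.25) encode subunits of the general transcription factors TFIIH and TFIIE, and Gabpb1 (-3.09) encodes the beta subunit of the factor GABP. Mrpl48, a mitochondrial ribosome protein, was at 28.7 against 209 CPM (-2.87). The rest were Csnk2a1, the catalytic subunit of casein kinase 2 (-2.30), Gclc (-2.21), the selenocysteine elongation factor gene Eefsec (-2.15), the ubiquitin ligase gene Rnf138 (-2.13) and Vasp, an actin regulator (-2.01). Of these 10 genes, Gtf2h2 alone had the same sign before stimulation (-4.20 or beyond, with 0 IL-5 index reads). Gabpb1 had 0 reads there, and the other 8 were higher with the IL-5 index, by 1.09 to 6.12, of which Csnk2a1 (6.12) and Gtf2e2 (2.99) stood against 0 reads and are lower bounds. These pre-stimulation ratios rest on few cells. For Zbtb7a, Gtf2h2, Mrpl48, Csnk2a1, Gtf2e2 and Eefsec, 1 cell held at least 90% of the reads of the higher index, as it did for Ergic1 and Tgs1 among the genes above.

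**Figure D3:**
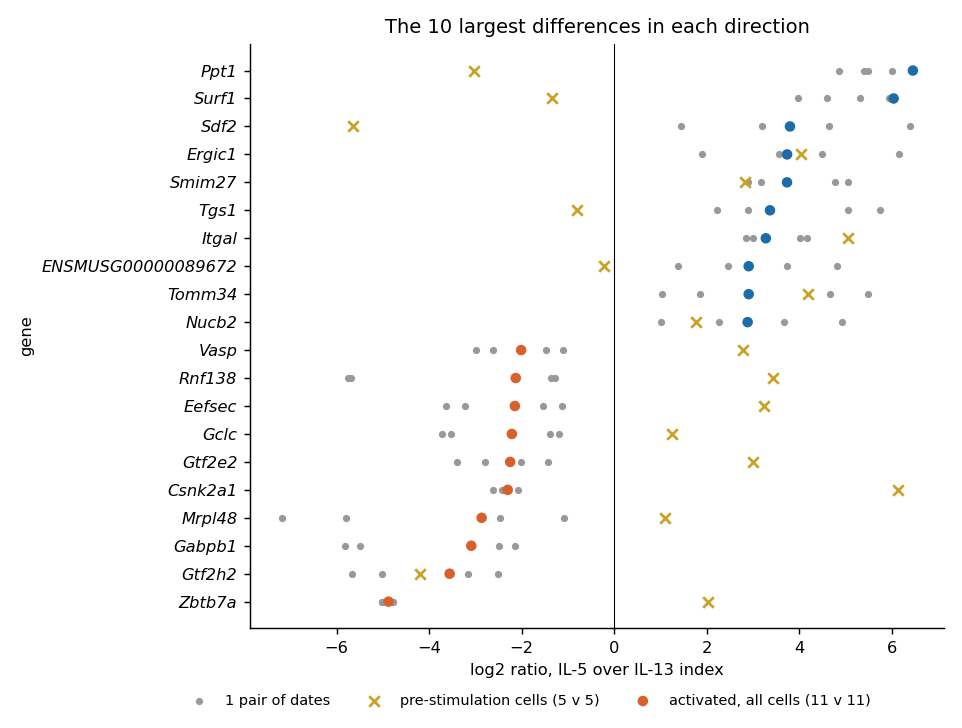
Log2 ratio of summed CPM, IL-5 over IL-13 index, for the 10 largest differences in each direction by the rule of size. The filled dot is all activated cells, the 4 grey dots are the pairs of dates and the gold cross is the same ratio among pre-stimulation cells, where it could be computed. Groups under 3 reads stand at 3 reads, as for Ppt1 and Surf1. The crosses of 8 of the 10 IL-13 index genes lie on the opposite side of 0.

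These differences were then looked up in the cells of other states from the same dates. Of the 24 genes higher with the IL-5 index, 19 were measured before stimulation: 9 differed at least 2-fold in the same direction, 4 in the opposite direction and 6 by less. Of all genes measured before stimulation 66.7% differed at least 2-fold, and the 9 and 4 of 19 together are near that share. Of the 10 genes higher with the IL-13 index, 5 were measured there, and all 5 differed at least 2-fold in the opposite direction. In silent cells the counts were 8 in the same and 3 in the opposite direction of 20 measured, and 2 and 1 of 6. At 30 min they were 2 and 3 of 16, and 2 and 2 of 6. Of the wider set called at 2-fold, 301 genes were higher with the IL-5 index. Of these, 183 were measured before stimulation, with 67 in the same and 49 in the opposite direction, and of 274 higher with the IL-13 index 151 were, with 42 and 64. At 30 min the counts were 62 and 31 of 189 measured for the IL-5 index and 32 and 40 of 168 for the IL-13 index, and in silent cells 59 and 54 of 222, and 55 and 41 of 179. The background of the silent and 30 min counts is the share of all measured genes past 2-fold, 51.8% and 49.4%.

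Across the 2143 genes measured in both states, the log2 ratio of activated cells had a correlation of -0.01 with that of pre-stimulation cells, and 50.5% of genes had the same sign. It was 0.09 with silent cells over 2492 genes and 0.05 with 30 min cells over 2324 genes. At 1000 CPM or more the values were -0.10 over 142 genes, 0.12 over 177 and 0.22 over 157. Genes are not independent, and activated cells share dates with all of these states.

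**Figure D4:**
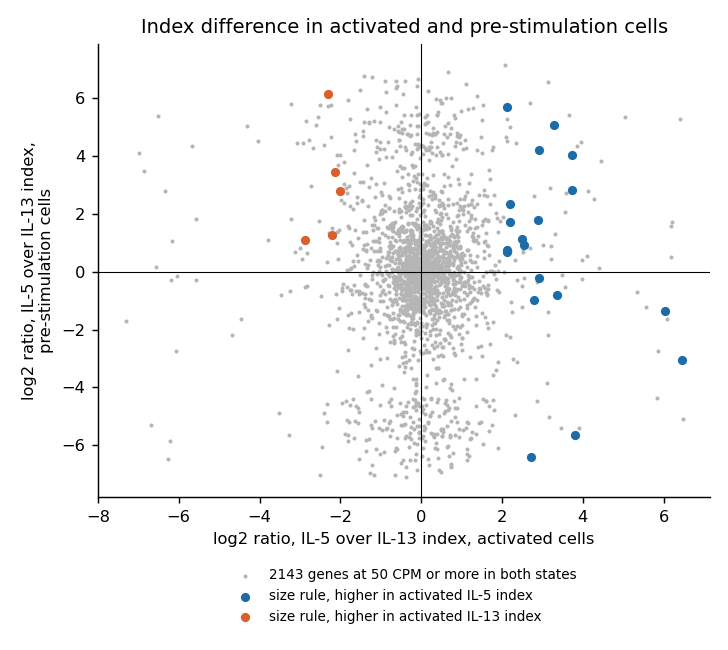
Log2 ratio of IL-5 to IL-13 index in activated cells (horizontal) against the same ratio in pre-stimulation cells (vertical), for 2143 genes at 50 CPM or more in both states. Coloured points are genes of the rule of size. The points form no slope, and the vertical spread is wider than the horizontal.

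Of the 63 called genes named by the rule, 50 had a ratio before stimulation: 16 differed at least 2-fold in the same direction as in activated cells, 21 in the opposite direction and 13 by less. No minimum level was set for these ratios. Beside them, 66.7% of all genes at 50 CPM or more before stimulation differed at least 2-fold in either direction. Of the 63, 40 moved by over 1.5 times on leaving out 1 cell, 15 fell under 2-fold on leaving out 1 cell, and 9 did so without the 2 IL-13 index cells that stood apart. These last counts were not made over all called genes, so they have no background.

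The size of the difference between indexes was then set beside that between 2 dates of one index, which serves as a reference with no index in it. Between the indexes, 32.1% of genes differed at least 2-fold with all cells summed, 15.3% higher with the IL-5 index and 16.8% with the IL-13 index. At 4-fold the share was 12.7%, made up of 5.59% and 7.09%. With 5 or 6 cells a side, the 4 pairs of dates across the indexes gave 43.3%, 48.9%, 44.3% and 49.6% at 2-fold. The 2 IL-5 index dates against each other gave 44.6%, and the 2 IL-13 index dates 51.1%. At 4-fold the pairs across the indexes gave 22.2%, 27.8%, 23.5% and 29.0%, and those within an index 21.7% and 29.2%. The shares within an index thus lay inside or next to the range of those across indexes. The same held at 200 CPM or more, where 20.1% to 25.0% of genes differed 2-fold across the indexes, and 20.8% and 26.3% within them. At 1000 CPM or more the pairs across the indexes gave 7.91% to 9.63%. Those within an index gave 6.42% (IL-5) and 10.6% (IL-13), under and over that range. Among the 211 genes at 1000 CPM or more with all cells summed, 3.79% differed 2-fold and 0 differed 4-fold between the indexes.

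The rule of size, without its term on dates, gave the same picture. It named 201 (6.27%), 209 (6.26%), 165 (5.31%) and 126 (3.88%) genes in the 4 pairs across indexes, 170 (5.36%) between the IL-5 index dates and 191 (5.78%) between the IL-13 index dates. In pre-stimulation cells it named 270 (6.93%), and 66.7% of genes differed 2-fold and 48.0% 4-fold there with 5 cells a side. Between the indexes, 51.8% of genes in silent cells and 49.4% in 30 min cells differed 2-fold, and 28.2% and 25.5% differed 4-fold.

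**Figure D5:**
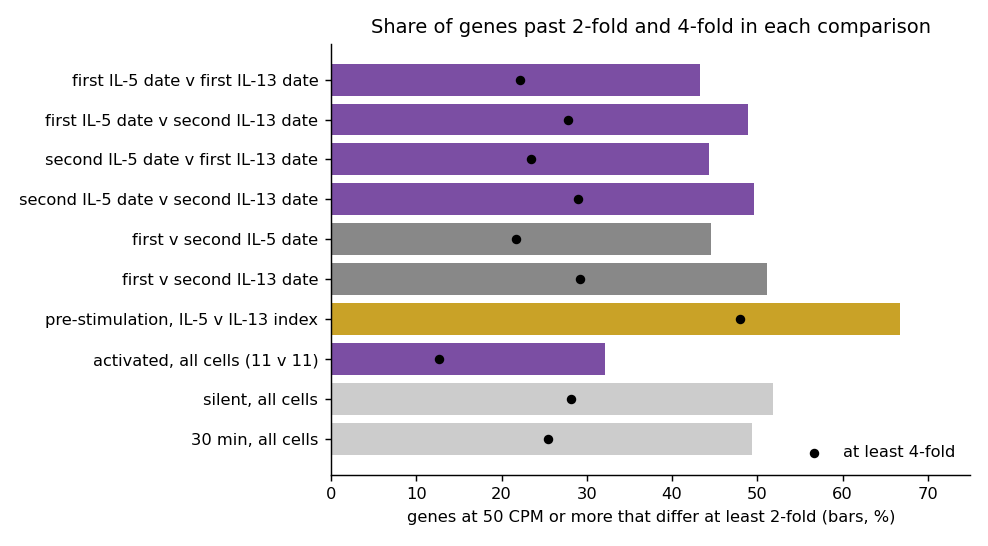
Percent of measured genes that differed at least 2-fold (bars) and at least 4-fold (black dots) in each comparison. The bars of the date pairs across indexes (43.3% to 49.6%) and within an index (44.6% and 51.1%) lie in overlapping ranges, and the pre-stimulation bar is the tallest at 66.7%.

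The likeness of whole profiles of single cells was also compared. Over 2461 genes, the median correlation of 2 IL-5 index cells was 0.432 on the same date and 0.440 on different dates, that of 2 IL-13 index cells 0.425 and 0.414, and that of a cell of each index 0.430 over 121 pairs. These pairs share cells and vary with depth, so the values are a description. The most similar cell was of the same index for 7 of 11 IL-5 index cells and 6 of 11 IL-13 index cells, and of the same date for 5 and 5. Of the other 21 activated cells 47.6% share a cell's index and on average 21.6% its date.

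Of the measured genes, 27 (0.899%) had reads in the IL-5 index cells alone and 42 (1.4%) in the IL-13 index cells alone. Of these, 17 and 13 were read in 4 or more cells, at most in 9 and 6.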

How the data were processed

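SMART-Seq v4 3′ DE libraries of single mouse ILC2 were pooled by 5 or 6, per the labels. The authors aligned reads with TopHat2 and deposited raw read counts per gene from HTSeq. The submitters' notes list mm10 and GRCh38, and the strand setting is not given in the sources used here. Each file lists 46078 Ensembl identifiers, of which a GENCODE annotation of GRCm38 named 45143, and 5 summary entries, left out of totals. No spike-in entries were in the files used.

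The members, gene lists and rules were chosen with earlier results of these data known. Groups came from the source names. Counts were summed per group and scaled to 1000000 gene reads (CPM). Log2 ratios used a floor of 3 reads over a group, with 95% Clopper-Pearson intervals, and CPM had exact Poisson intervals. Each cell counted as part of 1 sample, so no test was made. Named in the text are Il5, Il13, measured cytokines and chemokines, the 10 largest differences in each direction by the rule of size, and up to 4 measured members of each other list with the largest ratio, those with the same direction in the 4 date pairs first. Some genes that this rule names are not reported here. Depth was 207246 to 465179 gene reads per activated cell, and a group floor of 3 reads limits what 0 reads can show.

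Analyses used Python 3.11.15, numpy 2.4.6, pandas 2.3.3 and scipy 1.17.1, with scaling alternatives from edgeR 4.0.16 and DESeq2 1.42.0 in R 4.3.3. The alternatives tried were other scalings, pseudocounts, levels, shares and folds, single pairs of dates, subtraction of the pre-stimulation difference and leaving out each cell. Leaving out the IL-13 index cells that stood apart, counting a cell at 10 CPM, levels of 200 and 1000 CPM for the date comparison, and the count of calls lost without 1 cell were chosen after seeing the data.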

Additional observations from a re-analysis of the deposited data

Results flagged for a closer look

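In 2 of 12 combinations of group and measure looked at in groups of 4 to 10 cells, 1 cell lay far from the others. Among the 5 pre-stimulation IL-13 index cells, 1 cell had Il5 at 93.5 CPM, from 23 reads, and the other 4 had 0. One cell of the same 5 had Il13 at 5.92 CPM, from 1 read, and the other 4 had 0. With 4 cells at 0 any read in the fifth meets this measure of distance, so the usual rate of about 1 in 20 groups for chance does not apply. The activated groups, with 11 cells each, are too large for this comparison of gap to range and were not examined by it.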

How the results depend on the processing

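No paired analysis was possible because the replicate numbers were given in accession order and name cells of different dates, and because no test was made.

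For Il5 the direction was the same under every alternative run, at 1.74 with the mean of the cells' CPM, 0.83 with medians, 1.71 and 2.07 between the first and between the second dates, 5.19 or beyond after subtraction of the pre-stimulation difference, which stands against 0 reads, and 1.28 to 2.15 on leaving out 1 cell. IL-5 index replicate 7 gave the lowest of these. For Il13 the ratio was -0.84 with medians, 0.56, -0.47, 0.26 and -0.77 between pairs of dates, -0.21 without the 2 cells that stood apart, and -0.821 to 0.073 on leaving out 1 cell. It could not be computed after subtraction of the pre-stimulation difference, since both groups were under the floor there.

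The rule of size gave 24 and 10 genes for the IL-5 and IL-13 index. It gave 1 and 1 at 200 CPM (Sdf2 and Mrpl48), 611 and 463 with no minimum of level and share, 64 and 42 with a read in 50% of cells, 1 and 0 with a read in 100%, 127 and 76 at 2-fold, 7 and 3 at 8-fold, and 96 and 56 after subtraction of the pre-stimulation difference. With a cell counted at 10 CPM it gave 13 and 7, all of them among the 24 and 10. Toward the IL-5 index, Ppt1, Surf1, Ergic1, Smim27 and Nucb2 were among the genes lost. Toward the IL-13 index, Mrpl48, Gtf2e2 and Vasp were lost. Scaling by TMM gave 23 and 10 and by DESeq2 24 and 10. Without the 2 cells that stood apart it gave 24 and 15, of which 18 and 9 were shared with the full set. With no term on dates and left-out cells it gave 25 and 14, and under that form leaving out 1 cell gave 25 to 43 and 13 to 27. IL-5 index replicates 3, 7, 8 and 11 gave 43, 38, 41 and 41 for the first count. For the second, 19 of the 22 cells gave more than 15, the highest without IL-13 index replicate 3.

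Among called named genes, subtraction of the pre-stimulation difference reversed the sign of some. These were Tnf (0.31), Ergic1 (-0.31), Itgal (-1.78), Tomm34 (-1.28), Gtf2h2 (0.65), Il18rap (0.80), Il7r (0.53), Mcm6 (5.28), Hpgds (0.27) and Gm26917 (0.73). The value is a bound for Tnf, Ergic1, Itgal, Gtf2h2, Il18rap, Mcm6 and Gm26917, where the difference stands against 0 reads. Medians reversed Egr2 (2.04) and Ptprc (1.98). Lta was at -0.87 without IL-5 index replicate 6, against 2.44 as the highest on leaving out a cell. Reversal was followed for called genes only. Some uncalled genes also changed sign, such as Il4 (-4.61 after subtraction, also a bound) and Calca (-1.105 with medians). The causes were not tested. Depth limits the genes near 50 CPM most, which carry the fewest reads.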

Other observations

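Some genes were read almost wholly in 1 activated cell. Of genes with at least 100 reads over the 22 cells, 108 had at least 90% of their reads in 1 cell. For 39 of these it was all reads, and the other 69 had some reads elsewhere. Of the 69, IL-13 index replicates 9 and 10 held 16 and 13, and of the 39 they held 8 and 5. The genes with the most reads among the 69, chosen after their values were seen, were Il22, with 1095 of 1098 reads in IL-13 index replicate 11, and Ly6k, a surface protein of the Ly6 family, with 600 of 603 reads in IL-13 index replicate 3. Among chemokines Cxcl1 was of this kind, with 447 of 448 reads in 1 IL-13 index cell. Over the 69 genes 434 reads fell outside the cell that held the most, and 24.9% of those fell in cells of the same title date, which made up 22.6% of the other activated cells. For 28 of the 69 genes all such reads fell in cells of the same date. A cell of the same date with any such read had a median of 1.

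Penk was shared by a pair of cells rather than 1: IL-5 index replicates 2 and 11, of different dates, held 644 and 651 of its 1300 reads. Silent, 30 min and pre-stimulation cells had 0 reads of it in either index.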
